A study of Mus musculus with 39 samples.

Results

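Rn45s, the row for the 45S precursor of ribosomal RNA, and 4 nuclear long noncoding RNAs, Malat1, Neat1, Meg3 and Kcnq1ot1, were followed through 39 sequencing libraries of mouse atherosclerotic plaque. They are 5 of the 24062 gene rows, taken by their symbols. Rn45s was chosen by its share of gene counts, which was known to differ between the groups, so its group levels are described here without a test. The question put to the other 4 was whether nuclear RNAs rise with the Rn45s share.

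All mice were female, Apoe-deficient (B6.129P2-Apoe tm1Unc, which lack the lipoprotein ligand apolipoprotein E), 20 weeks old and on a high-cholesterol diet for 12 weeks. They received 4 intravenous injections within 7 days: TRAF6i-HDL (10 libraries), mTORi-HDL (10), S6K1i-HDL (9) or PBS (10). In the first 3 groups a high-density lipoprotein particle carried, at 5 mg/kg, a compound against TRAF6 (which relays signals of the receptor CD40), mTOR (a kinase that controls growth) or S6K1 (a kinase that mTOR activates). No library here is labelled with the empty particle, so drug and carrier cannot be told apart. CD68-rich areas were cut by laser from 6 µm sections of the aortic root 24 h after the last injection, and the RNA was amplified as whole transcriptomes. Because CD68 staining chose the tissue, Cd68 is no finding; its level ran from 282 to 1598 CPM (counts scaled to a common library total, here with Rn45s left out of that total) over all libraries, and that of Apoe from 0 to 16.5 CPM.

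RNA polymerase I transcribes the 45S precursor in the nucleolus, where it is cut and trimmed into the 18S, 5.8S and 28S RNAs of the ribosome. Reads from the mature RNAs also match the precursor's row, so the Rn45s count does not separate new from mature ribosomal RNA. Malat1 is a very abundant RNA of nuclear speckles, the bodies that store splicing factors. Neat1 is the scaffold of paraspeckles. Meg3, transcribed from the maternal chromosome, and Kcnq1ot1, transcribed from the paternal one, belong to imprinted gene clusters.

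The 3′ ends show how these RNAs differ in ways that matter for a library. Malat1 and the long Neat1 isoform end without a poly(A) tail added by polyadenylation: both are cut by RNase P, and the new end is protected by a triple helix of 2 U-rich tracts and an A-rich run written in the genome. The short Neat1 isoform is polyadenylated. The sequences below, from GENCODE vM21 on GRCm38, are the minus strand in DNA letters, with T for U. Capitals mark the 2 U-rich tracts and the A-rich run in the first pair, and the polyadenylation signal in the last.
Malat1, chr19:5795982-5796081: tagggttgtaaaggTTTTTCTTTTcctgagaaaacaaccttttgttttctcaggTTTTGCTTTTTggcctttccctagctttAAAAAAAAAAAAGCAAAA
Neat1 long, chr19:5824708-5824807: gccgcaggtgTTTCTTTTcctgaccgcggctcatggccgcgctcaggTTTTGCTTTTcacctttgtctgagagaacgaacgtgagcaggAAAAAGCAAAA
Neat1 short, chr19:5842307-5842366: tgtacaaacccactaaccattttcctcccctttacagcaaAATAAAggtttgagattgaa
On each transcript's own strand, 2 tracts, each TTTCTTT or TTTGCTTT, followed by AAAAGCAAAA within 100 bases were sought. This arrangement was found in 3 of 141767 annotated transcripts (0.00212%), from Malat1, Neat1 and Ncapg2. The deposited counts give 1 value for Neat1 and cannot separate its isoforms.

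In the same annotation Malat1 lies at chr19:5795690-5802672 and Neat1 at chr19:5824708-5845478, both on the minus strand and 22035 bases apart. Meg3 lies at chr12:109541001-109571726 on the plus strand, with 11 transcripts. Kcnq1ot1 lies at chr7:143203458-143296549 on the minus strand, annotated as antisense. Their longest transcripts measure 6983, 20771, 14548 and 93092 bases in the order Malat1, Neat1, Meg3, Kcnq1ot1. Kcnq1ot1 runs antisense within the protein-coding gene Kcnq1, and the strand setting of the counting is not given in the sources used here, so their reads may not be separated. The authors' mouse build is not given either, and these coordinates are only those of GRCm38.

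Libraries held 50091 to 6833491 counts in genes, and 3 of them fewer than 200000 (TRAF6i-HDL replicate 7, S6K1i-HDL replicate 1 and PBS replicate 9). Depth differed between groups, with medians of 2048300 in TRAF6i-HDL libraries, 3142571 in mTORi-HDL, 4742543 in S6K1i-HDL and 1340382 in PBS libraries. The labels do not tie each library to its own mouse, so the p-values measure the spread between these libraries. In captured tissue, fewer cells of a type and less RNA per cell cannot be told apart.

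Rn45s took a share of gene counts above the PBS mean in 7 of 10 TRAF6i-HDL, 8 of 10 mTORi-HDL and 9 of 9 S6K1i-HDL libraries. The share averaged 17.8 ± 8.31% in TRAF6i-HDL libraries, 23.1 ± 7.81% in mTORi-HDL and 37.0 ± 10.35% in S6K1i-HDL libraries, against 12.95 ± 10.9% in PBS libraries (SD, n = 10, 10, 9 and 10). The lowest, median and highest shares were 2.59%, 15.9% and 28.3% in TRAF6i-HDL libraries, 6.71%, 25.6% and 32.5% in mTORi-HDL, 14.5%, 41.8% and 47.5% in S6K1i-HDL, and 2.28%, 7.49% and 30.0% in PBS. The groups overlapped: 7 of 9 S6K1i-HDL libraries, 1 of 10 mTORi-HDL libraries and 0 of 10 TRAF6i-HDL libraries lay above the highest PBS library. The fitted log2 differences from PBS were 0.47 ± 0.43 for TRAF6i-HDL libraries, 0.98 ± 0.43 for mTORi-HDL and 1.91 ± 0.45 for S6K1i-HDL (SE). These are shares of counts in genes, and many reads lay elsewhere. Of uniquely aligned reads outside Rn45s, 56.2% to 73.2% fell outside genes. As a share of all aligned reads, Rn45s averaged 5.64% in TRAF6i-HDL, 7.83% in mTORi-HDL, 12.4% in S6K1i-HDL and 4.26% in PBS libraries.

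Libraries of 1 group differed widely. In PBS libraries the highest share was 13.2 times the lowest, and in TRAF6i-HDL libraries 10.9 times. Counting error is far smaller: in the shallowest library, PBS replicate 9, the share was 15.0% with a 95% Wilson interval of 14.7% to 15.4%. Such intervals cover counting error only, since the reads carry no molecular identifiers. S6K1i-HDL replicates 1 to 6 and 7 to 9 are listed apart in the series, and their medians were 42.2% and 27.2%. So are mTORi-HDL replicates 1 to 4 and 5 to 10, with medians of 24.5% and 26.9%.

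Because a large Rn45s share lowers every other share, the levels of the 4 long noncoding RNAs were taken against the counts outside Rn45s. The fitted differences between groups kept Rn45s among the counts. Per kilobase of exon, the median level over the 39 libraries was 19961 CPM per kilobase for Malat1, 42.8 for Neat1, 5.78 for Kcnq1ot1 and 1.43 for Meg3. The Neat1 value takes all 20771 bases of its exons and would be higher if the reads came from the short isoform.

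**Figure D1:**
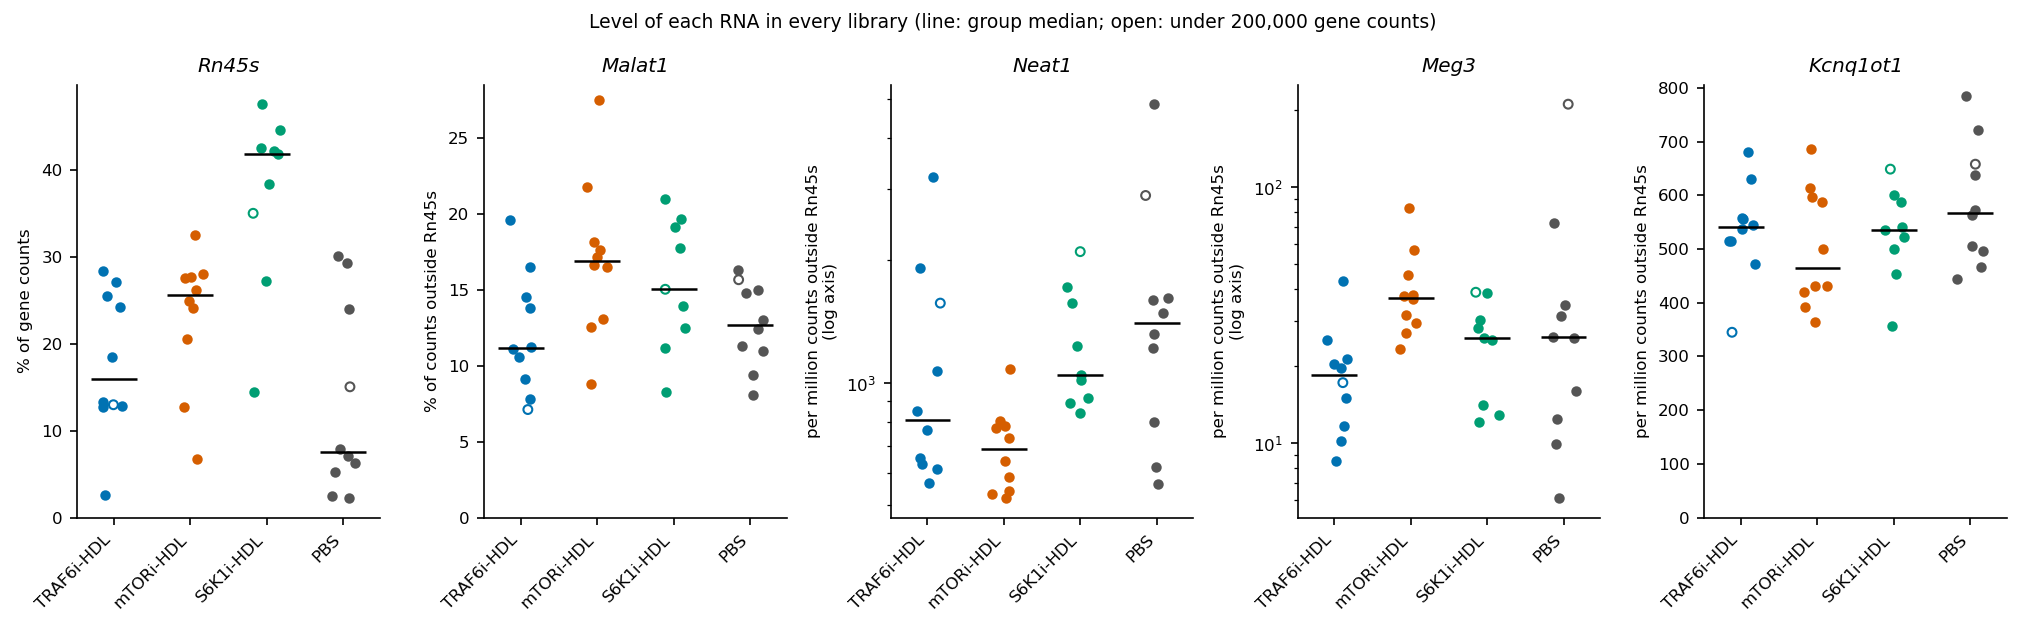
Each point is 1 library of the group on the horizontal axis; the vertical axis gives Rn45s as a percentage of gene counts, Malat1 as a percentage of counts outside Rn45s, and the other 3 RNAs in CPM outside Rn45s (log axes for Neat1 and Meg3). Lines are group medians and open points the 3 libraries under 200000 gene counts. The S6K1i-HDL median of Rn45s stands at 41.8%, above all 10 PBS libraries, and the ranges of the 4 groups overlap for every RNA, Rn45s included.

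Malat1, the speckle RNA, held between 7.12% and 27.5% of all counts outside Rn45s. It averaged 12.2 ± 3.96% in TRAF6i-HDL libraries, 16.99 ± 5.14% in mTORi-HDL and 15.4 ± 4.30% in S6K1i-HDL libraries, against 12.7 ± 2.76% in PBS libraries (SD). The lowest, median and highest values were 7.12%, 11.2% and 19.6% in TRAF6i-HDL libraries, 8.82%, 16.9% and 27.5% in mTORi-HDL, 8.29%, 15.0% and 21.0% in S6K1i-HDL, and 8.06%, 12.7% and 16.3% in PBS. All groups overlapped, and 7 of 10 mTORi-HDL libraries exceeded the highest PBS library. None of the 3 differences from PBS passed edgeR's quasi-likelihood test: log2 -0.03 ± 0.25 for TRAF6i-HDL (adjusted p = 0.989), 0.49 ± 0.25 for mTORi-HDL (adjusted p = 0.295) and 0.27 ± 0.26 for S6K1i-HDL (adjusted p = 0.534).

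Neat1, the paraspeckle scaffold, was lower in mTORi-HDL than in PBS libraries, by a margin that barely passed the test. It had a lowest, median and highest level of 565, 810 and 3207 CPM in TRAF6i-HDL libraries, 520, 686 and 1080 in mTORi-HDL, 841, 1045 and 2102 in S6K1i-HDL, and 564, 1401 and 4849 in PBS libraries. The mTORi-HDL values were the most tightly packed, and 3 of 10 lay below the lowest PBS library. The log2 difference of mTORi-HDL from PBS was -1.21 ± 0.33 (SE; adjusted p = 0.04996 by edgeR's quasi-likelihood test), with 10 of 10 mTORi-HDL libraries under the mean log2 level of the PBS group. Of all 10411 genes tested, 171 (1.64%) passed in this comparison, 65 of them higher (0.624%) and 106 lower (1.02%). Leaving out 1 library at a time kept the call in 6 of 39 fits, and without PBS replicate 3, which held the highest Neat1 level, the difference was -0.79. Without Rn45s in the counts the call was lost, at -1.20 (adjusted p = 0.0513 by the same test). It was also lost with the log2 Rn45s share as a covariate, at -0.44 (adjusted p = 0.668), and with depth, at -0.78 (adjusted p = 0.270). With these covariates 21 and 75 of all genes passed, beside 171 without.

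TRAF6i-HDL and S6K1i-HDL gave no passing difference in Neat1 from PBS. The log2 differences were -0.50 ± 0.33 for TRAF6i-HDL (adjusted p = 0.602) and -0.50 ± 0.34 for S6K1i-HDL (adjusted p = 0.350) in edgeR's quasi-likelihood test. In these comparisons 2 genes (0.0192%) and 1242 genes (11.9%) of the 10411 passed. Summed over the 20 macrophage markers, the level ran from 16810 to 60890 CPM in mTORi-HDL and from 18510 to 90070 in PBS libraries. Of the 19 tested markers 1 was higher and 3 were lower in mTORi-HDL than in PBS libraries, beside 0.624% and 1.02% of all genes. The part of this in the Neat1 difference was not tested.

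Meg3 was the scarcest of the set, with 1 to 164 counts in a library. Its lowest, median and highest levels were 8.54, 18.4 and 42.9 CPM in TRAF6i-HDL libraries, 23.5, 37.0 and 82.8 in mTORi-HDL, 12.1, 25.9 and 38.9 in S6K1i-HDL, and 6.11, 26.0 and 211.5 in PBS libraries. The highest PBS value rests on 9 counts, with a 95% Wilson interval of 111 to 402 CPM. Against PBS the log2 differences were -0.70 ± 0.37 for TRAF6i-HDL, 0.52 ± 0.33 for mTORi-HDL and -0.34 ± 0.35 for S6K1i-HDL, and none passed (adjusted p = 0.484, 0.419 and 0.573). Among the 3 pairs of inhibitors, 1 of the 12 tests of the 4 RNAs passed: Meg3 in mTORi-HDL against TRAF6i-HDL, at a log2 difference of 1.21 ± 0.34 (adjusted p = 0.0382), where 304 of the 10411 genes passed (2.92%), 142 of them higher (1.36%). All 10 mTORi-HDL libraries lay above the mean log2 level of the TRAF6i-HDL group, and the ranges overlapped. It passed in 29 of the 39 leave-one-out fits, with differences between 1.03 and 1.38. The summed macrophage markers ran from 16810 to 60890 CPM in mTORi-HDL and from 42340 to 96090 CPM in TRAF6i-HDL libraries, and the 12 endothelial markers from 694 to 1381 CPM in mTORi-HDL and from 417 to 1239 CPM in TRAF6i-HDL libraries. Their part in the Meg3 difference was not tested. In the other pairs 166 genes (1.59%, S6K1i-HDL against TRAF6i-HDL) and 643 genes (6.18%, S6K1i-HDL against mTORi-HDL) passed, with 0 of the 4 RNAs in either.

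Kcnq1ot1 was the steadiest. It averaged 536 ± 89.7 CPM in TRAF6i-HDL libraries, 502 ± 111 in mTORi-HDL and 527 ± 86.3 in S6K1i-HDL libraries, against 585 ± 113 in PBS libraries (SD). The highest level in any library, 784, was 2.27 times the lowest, 345. In the separately listed mTORi-HDL replicates 1 to 4 and 5 to 10 the medians were 426 and 592 CPM. Their ranges were 392 to 431 and 364 to 687 CPM. The log2 differences from PBS lay between -0.20 and -0.11, and none passed (adjusted p = 0.840, 0.535 and 0.416 for TRAF6i-HDL, mTORi-HDL and S6K1i-HDL).

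The nuclear RNAs did not rise together with the Rn45s share. With group means taken out, Neat1 fell as the Rn45s share grew, Malat1 leaned upward without passing the test, and Meg3 and Kcnq1ot1 showed no slope beyond their error. The slope is the change in log2 level for each doubling of the Rn45s share, fitted with the group means taken out and Rn45s removed from the counts. Of 10566 genes tested, 1454 rose (13.8%) and 1561 fell (14.8%) at an adjusted p under 0.05, 28.5% in all, so a slope past the threshold was common.

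For Neat1 the slope was -0.47 ± 0.09 (SE; edgeR adjusted p = 1.64e-04), and 1.03% of all tested genes had a lower one. The 2 libraries with the highest Neat1 levels, PBS replicate 3 at 4849 CPM and TRAF6i-HDL replicate 8 at 3207 CPM, had Rn45s shares of 2.49% and 2.59%, among the 3 lowest of all. Without PBS replicate 3 the slope was -0.37, the weakest of the 39 fits that left out 1 library, and it passed in all 39 (adjusted p up to 0.00988).

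For Malat1 the slope was 0.18 ± 0.08, with a 95% interval of 0.02 to 0.34 (edgeR adjusted p = 0.0836, unadjusted p = 0.0285), above the slopes of 80.2% of genes. It passed without TRAF6i-HDL replicate 8, at 0.27, and without PBS replicate 1. Meg3 had a slope of -0.10 ± 0.13 (adjusted p = 0.598; 95% interval -0.36 to 0.15) and Kcnq1ot1 one of -0.05 ± 0.05 (adjusted p = 0.520; 95% interval -0.15 to 0.05). Meg3's slope was 0.06 without PBS replicate 1, and Kcnq1ot1's 0.01 without TRAF6i-HDL replicate 8.

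**Figure D2:**
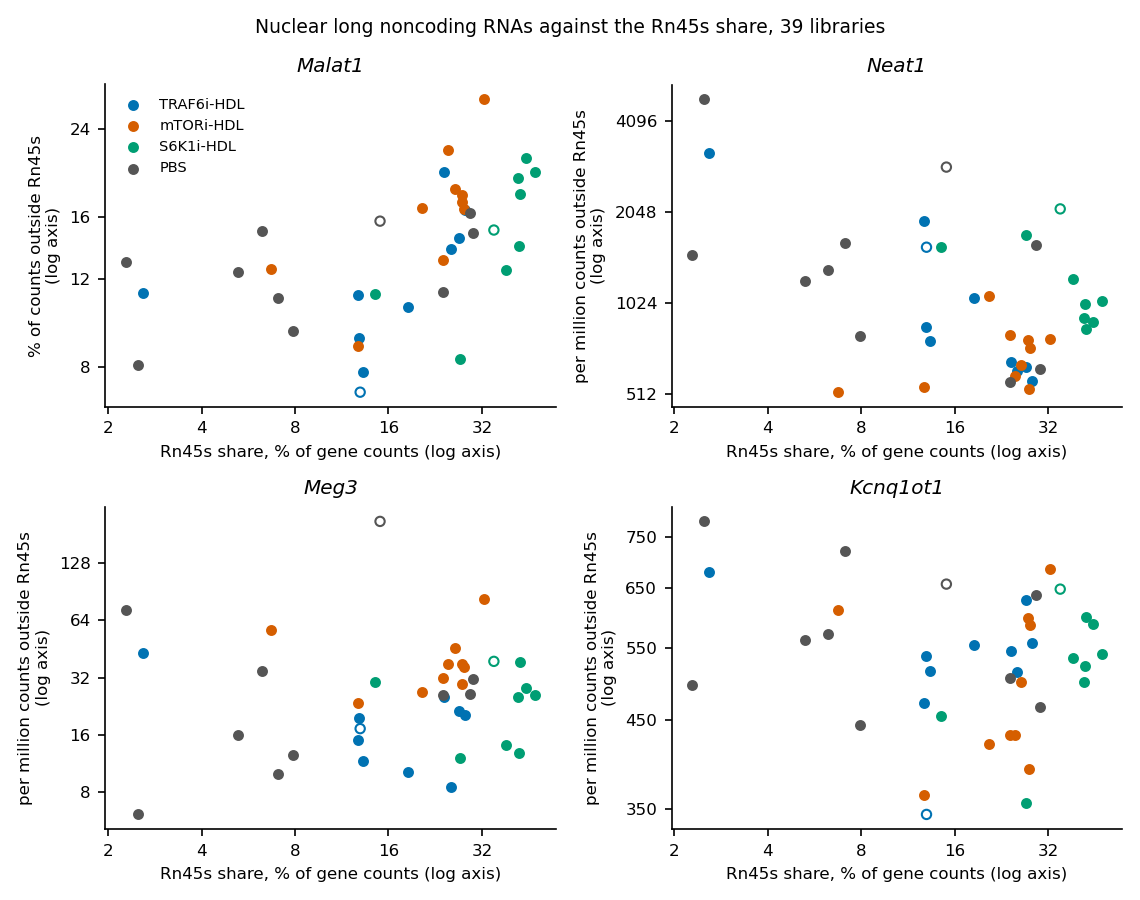
Each point is 1 of the 39 libraries, with its Rn45s share of gene counts on the horizontal axis and the level of the named RNA outside Rn45s on the vertical axis, both log scales; colours are groups and open points the libraries under 200000 gene counts. Neat1 is highest at 4849 and 3207 CPM in libraries with Rn45s shares of 2.49% and 2.59%, and Malat1 is highest at 27.5% in the mTORi-HDL library with the largest Rn45s share of its group, 32.5%.

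The slopes were also taken in each group. Neat1 had slopes of -0.78 ± 0.15 in TRAF6i-HDL libraries, 0.26 ± 0.25 in mTORi-HDL, -0.42 ± 0.33 in S6K1i-HDL and -0.43 ± 0.12 in PBS libraries (SE). Malat1 had slopes of 0.14 ± 0.14 in TRAF6i-HDL libraries, 0.47 ± 0.23 in mTORi-HDL, 0.65 ± 0.31 in S6K1i-HDL and 0.08 ± 0.12 in PBS libraries. Those of Malat1 were positive in all 4 groups, while Neat1's was negative in 3 of 4. A test of whether slopes differed between groups passed for 76 genes (0.719%) and for none of the 4 RNAs (adjusted p = 0.566 for Malat1, 0.263 for Neat1, 0.902 for Meg3 and 0.495 for Kcnq1ot1). Without PBS replicate 3, Neat1 passed that test (adjusted p = 0.0455).

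**Figure D3:**
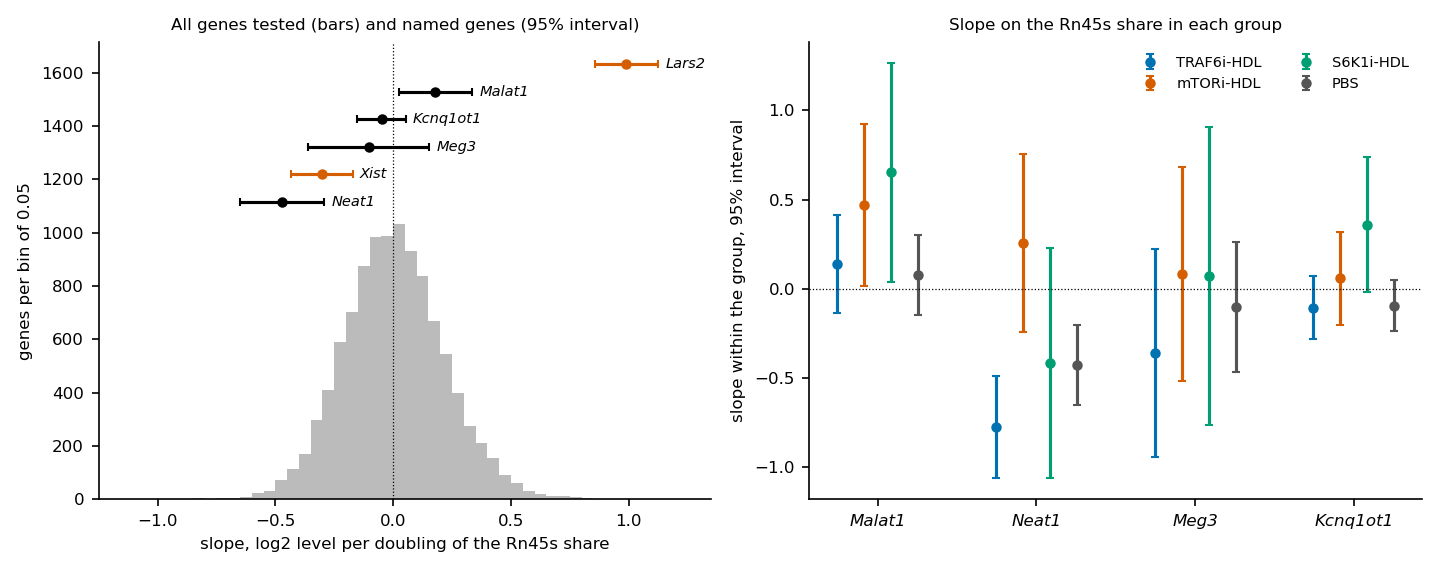
Left, the number of genes in each bin of slope (change in log2 level per doubling of the Rn45s share), with the slopes and 95% intervals of the 4 RNAs in black and of Xist and Lars2 in orange; right, the slope of each RNA in each group with its 95% interval. Neat1, at -0.47, lies in the lower tail and Malat1, at 0.18, on the upper side of the distribution.

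Correlations with the Rn45s share were also taken within groups, on log2 values. For Neat1 in TRAF6i-HDL libraries Pearson's r with the Rn45s share was -0.88 (two-sided permutation p = 0.0017, adjusted over 16 correlations 0.0272) and Spearman's rho -0.93 (permutation p = 0.00048, adjusted 0.00768; n = 10). Without the 2 libraries farthest from the median share, r was -0.72. In S6K1i-HDL and PBS libraries Neat1 gave r of -0.61 and -0.51 (exact permutation p = 0.115 and permutation p = 0.133, both 0.304 after adjustment; rho -0.73 and -0.39). For mTORi-HDL it gave 0.44 (permutation p = 0.183, adjusted 0.367; rho 0.24), which turned to -0.45 without the 2 farthest libraries and so rests on them.

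Malat1 correlated positively with the Rn45s share in every group, with r of 0.44 in TRAF6i-HDL libraries, 0.68 in mTORi-HDL, 0.68 in S6K1i-HDL and 0.53 in PBS libraries. None passed on Pearson's r after adjustment over the 16 tests (adjusted p from 0.304 to 0.379, permutation tests). On ranks 1 of 4 passed, in S6K1i-HDL libraries, at rho = 0.85 (exact permutation p = 0.00607, adjusted 0.0486; n = 9). The separately listed S6K1i-HDL replicates 1 to 6 and 7 to 9 differed in both measures, with median Rn45s shares of 42.2% and 27.2% and median Malat1 shares of 18.4% and 11.2%, and the part of this in the correlation was not tested. For Meg3 and Kcnq1ot1 r lay between -0.55 and 0.53, and no adjusted p was under 0.304 for r (permutation tests).

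**Figure D4:**
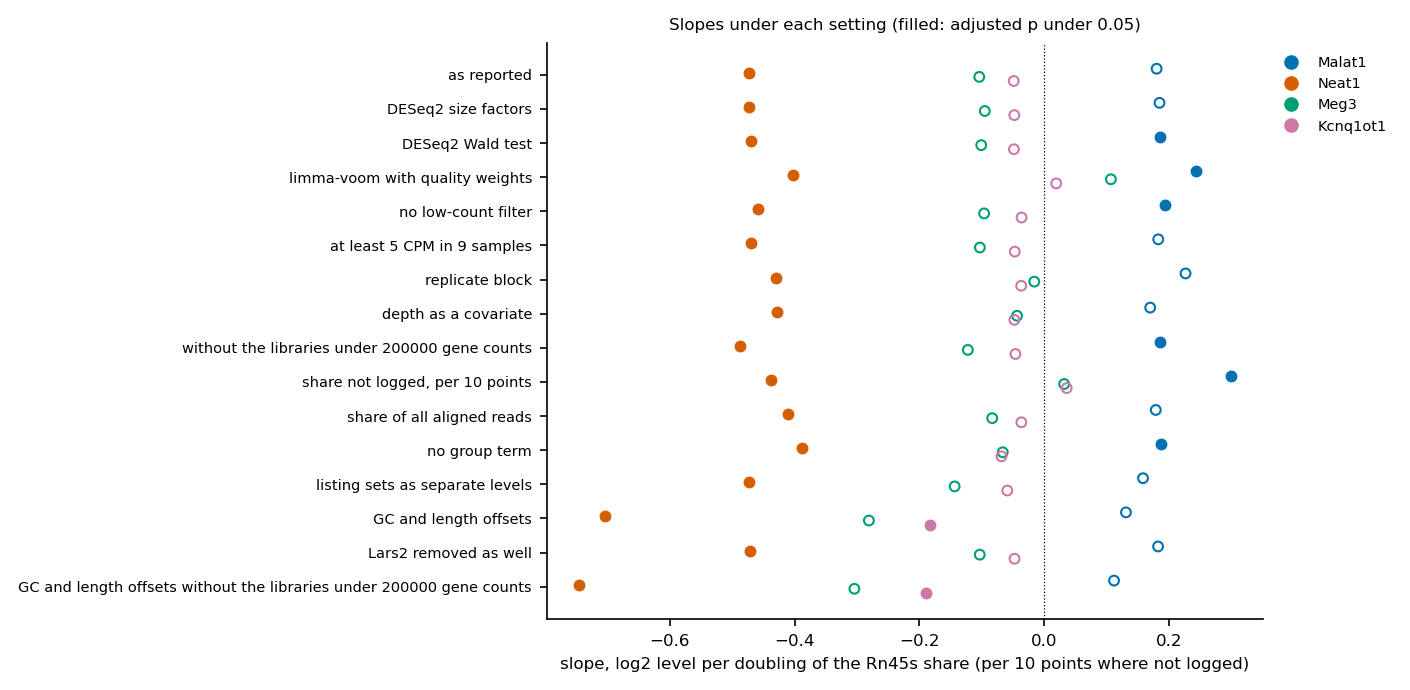
Slope of each of the 4 RNAs (horizontal axis, change in log2 level per doubling of the Rn45s share, or per 10 percentage points in the setting so named) under the setting named on the vertical axis; filled points passed an adjusted p of 0.05. Neat1 passed, lower, under the reported setting and all 15 others, between -0.74 and -0.39, and Malat1 under 6 of 15.

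Of 26 other nuclear long noncoding RNAs listed, 20 are in the files and 14 were tested, and 2 rose and 4 fell with the Rn45s share. Their median slope was -0.04, beside 5.36e-04 for all genes. For this list and those that follow, the shares to set beside such counts are the 13.8% of all tested genes that rose and the 14.8% that fell, and a list's count has no test of its own. Xist, which coats and silences the inactive X chromosome, fell by 0.30 ± 0.07 per doubling (adjusted p = 4.13e-04), and Ftx, a noncoding neighbour of Xist, by 0.31 ± 0.10 (adjusted p = 0.0115). Ftx did not pass without TRAF6i-HDL replicate 8 (-0.14, adjusted p = 0.330), under limma-voom (-0.19, adjusted p = 0.209) or with the share not logged (adjusted p = 0.105). The others that fell were Dleu2 and Firre, at -0.25 and -0.20, named here after their values were seen. H19, an imprinted fetal RNA, rose by 0.66 ± 0.20 (adjusted p = 0.0106), but did not pass with a replicate block (0.53, adjusted p = 0.0815) or with no group term (0.48, adjusted p = 0.0602). It was scarce, with medians of 6.33 CPM in TRAF6i-HDL, 24.85 in mTORi-HDL, 9.315 in S6K1i-HDL and 9.97 in PBS libraries. Its lowest level was 0 in TRAF6i-HDL and S6K1i-HDL libraries. Airn rose too, at 0.24, again named after its values were seen.

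The lowest, median and highest levels of Xist were 9454, 10010 and 15550 CPM in S6K1i-HDL and 10210, 17860 and 26110 in PBS libraries. Xist was lower in S6K1i-HDL, at log2 -0.77 ± 0.23 (adjusted p = 0.0242). Adding the log2 Rn45s share to the model brought the difference to -0.13 (adjusted p = 0.890). Most genes lost their call there, with 38 passing beside 1242 without the share. The Xist call was also lost without PBS replicate 3 or PBS replicate 4 (adjusted p up to 0.0644). Rian, transcribed beside Meg3 and likewise outside the rule for named genes, had a slope of -0.01 ± 0.14, which did not pass, and among 6 tested genes beside Meg3 or Kcnq1ot1 in their imprinted clusters 0 passed.

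Of 26 tested genes for proteins of paraspeckles, the bodies built on Neat1, 2 rose and 9 fell with the Rn45s share (median slope -0.05), beside 13.8% and 14.8% of all genes. Sfpq, a core paraspeckle protein that binds Neat1, had a slope of -0.32 ± 0.05 and Nono, its partner, one of -0.15 ± 0.05, both past the threshold (Nono is named after its values were seen). Hnrnph1 and Hnrnpm, splicing regulators, fell by 0.42 ± 0.05 and 0.36 ± 0.05, while Smarca4, a chromatin remodelling ATPase, rose by 0.53 ± 0.05. Of 41 tested nuclear speckle genes 7 rose and 19 fell (median -0.11), among those that fell Srsf2, Srsf6 and Clk4, at -0.44, -0.39 and -0.38, which encode 2 splicing factors and a kinase of such factors. In S6K1i-HDL against PBS, 0 of the 41 speckle genes were higher and 9 lower, beside 5.46% and 6.47% of all genes. With the Rn45s share as a covariate the 3 named by the rule, Ccnl2, Srsf11 and Sf3b1, no longer passed, at log2 -0.29, -0.22 and -0.14 (adjusted p = 0.580, 0.579 and 0.766). This loss was general: of all genes, 38 passed in that fit, beside 1242 without the covariate.

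Of 24 tested RNA polymerase I genes 4 rose and 3 fell (median slope -0.05), near the shares of all genes. Polr1a, the largest subunit of the polymerase, rose by 0.38 ± 0.08, and Polr2k, a small subunit shared with the other nuclear RNA polymerases, fell by 0.35 ± 0.09. With GC and length offsets neither passed, at 0.20 (adjusted p = 0.0904) and -0.05 (adjusted p = 0.743). Of 55 tested genes for ribosomal RNA processing 14 rose and 4 fell (median 0.09), including Rrp1, Bms1 and Utp20, assembly factors with slopes of 0.31, 0.31 and 0.30. The noncoding hosts of small nucleolar RNAs, which guide the modification of ribosomal RNA, gave 0 rising and 4 falling of 10 tested (median -0.22), such as Snhg6 at -0.50 ± 0.11. With GC and length offsets Snhg6 did not pass, at -0.25 (adjusted p = 0.0735), nor did Snhg3, at -0.05 beside -0.30 without offsets (adjusted p = 0.795). The nuclear exosome and its partners, which degrade nuclear RNA, gave 0 rising and 9 falling of 20 (median -0.08), such as Pabpn1 at -0.53 ± 0.07.

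RNAs without a poly(A) tail gave little to compare. None of the 16 small noncoding genes in the files was tested, since their counts were too low. Of 59 replication histone genes, most of whose messages end in a stem-loop, 5 were tested: Hist1h4d, Hist1h1e and Hist1h1c rose by 0.81, 0.75 and 0.63, Hist1h2bc fell by 0.49, and Hist2h2be, at -0.15, did not pass. Hist1h1c and Hist2h2be are named after their values were seen. Of 29 tested abundant messages of the cytoplasm 2 rose and 11 fell (median -0.09), among them Ctsb, a lysosomal protease, at -0.46 ± 0.08 and Cfl1, an actin-severing protein, at -0.39 ± 0.05.

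Among cell type markers, 3 of 19 macrophage genes rose and 10 fell with the Rn45s share (median slope -0.17), 2 of 10 smooth muscle genes rose and 0 fell (median 0.29), 0 of 11 fibroblast genes rose and 5 fell, and 1 of 11 endothelial genes rose and 0 fell, beside 13.8% rising and 14.8% falling of all genes. Of 2 tested cardiomyocyte genes 1 fell, of 2 adipocyte genes 1 fell, and of 3 lymphocyte genes 0 passed. Their part in the slopes of the noncoding RNAs was not tested.

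The smallest p of the slope fit belonged to Lars2, which encodes the mitochondrial leucyl-tRNA synthetase. Its slope was 0.99 ± 0.07 (adjusted p = 3.38e-17), near 1, so that its share rose almost in step with that of Rn45s. The counts do not show which part of Lars2 the reads came from, so reads of its own message and reads of any sequence shared with ribosomal RNA cannot be told apart. There were 10.5 to 23.0 Lars2 counts for each 100 Rn45s counts over the 39 libraries, with a median of 14.6, while the Rn45s share itself differed 20.8 times between libraries. Lars2 took between 0.404% and 10.4% of the counts outside Rn45s, and removing it from the counts left Malat1's slope at 0.18 and Neat1's at -0.47. After Lars2, the rule for named genes gave Hspg2, Myo9b, Supt6, Plec, Piezo1, Pkd1, Smarca4, Eif4g1 and Tln1 on the rising side, at slopes of 0.39 to 0.63. On the falling side it gave Eif1, Slc25a4, Trim8, Srsf2, Hnrnpf, Vdac1, Sptssa, Rab12, Gng5 and Cox7c, at -0.53 to -0.41.

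The 10 rising genes given by the rule had longest transcripts of 3894 to 15455 bases, and the 10 falling ones of 709 to 3580 bases. Plec, a cytoskeletal linker, and Hspg2, the basement membrane proteoglycan perlecan, have longest transcripts of 15455 and 14187 bases, against 709 bases for Cox7c, a subunit of cytochrome oxidase, and 1322 for Eif1, a translation initiation factor. Over the 10119 tested genes with a reference transcript (95.8%), slopes correlated with log2 length at r = 0.28 and with GC content at r = 0.26, across genes, which are not independent replicates. With genes cut into 4 equal bins by length, in the longest bin 24.8% rose and 8.29% fell, and in the shortest bin 5.22% rose and 22.1% fell. Neat1 fell, and its longest transcript, at 20771 bases, puts it in the longest bin. Its short isoform is not counted apart, so the length behind its counts is not known.

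**Figure D5:**
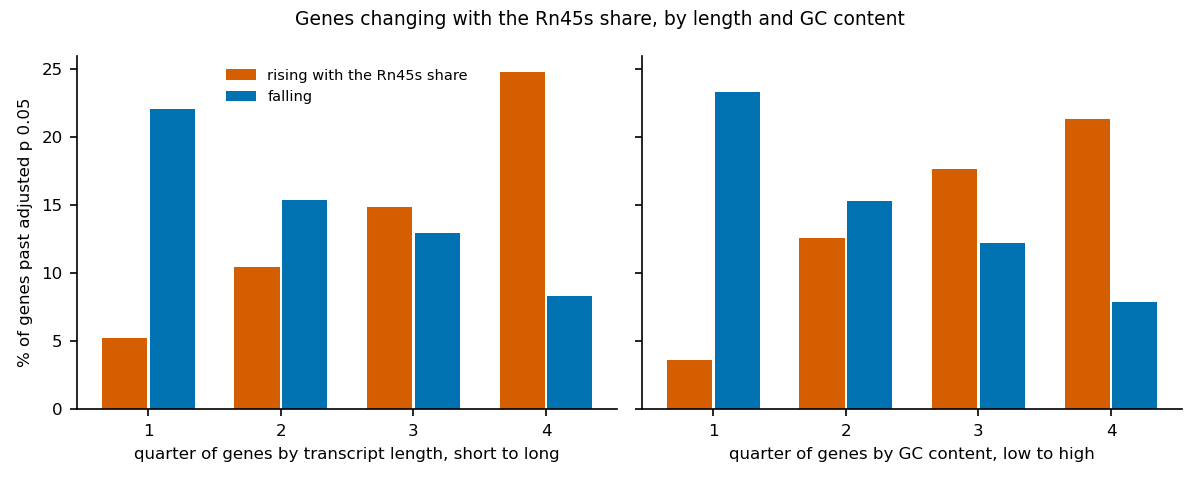
Bars give the percentage of genes that rose (orange) or fell (blue) with the Rn45s share in 4 equal bins of genes by longest transcript (left) and by GC content (right). The rising share goes from 5.22% in the shortest to 24.8% in the longest bin, and the falling share from 22.1% to 8.29%.

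With each library's trend on GC content and length taken out by offsets, an alternative chosen after seeing the data, 716 genes rose and 1661 fell, so that 30.1% of the passing genes rose, beside 48.2% without offsets. Neat1's slope was then -0.70, still past the threshold, Malat1's 0.13 (adjusted p = 0.198) and Kcnq1ot1's -0.18, now past it (adjusted p = 0.0198). The median slope of all genes moved to -0.03, from 5.36e-04 without offsets. The offsets took the longest transcript of each gene, 20771 bases for Neat1, whichever isoform its reads came from.

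With group means removed, Malat1 and Neat1 had r = -0.16 over the 39 libraries, although their genes are neighbours, while Malat1 and Kcnq1ot1 had r = 0.60 and Malat1 and Meg3 r = 0.43. These are descriptions, with a shared total count in each library. The genes most like Malat1 were Gm17644 (r = 0.80), Srrm2, Ctcfl, Rrbp1 and Vps13d (0.74 to 0.68). Srrm2 encodes a scaffold protein of nuclear speckles. The genes most like Neat1 were Atp6v1h (0.82), a subunit of the proton pump of lysosomes, Tspan14, Aftph, Eif4a2 and Wsb1 (0.76 to 0.72).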

How the data were processed

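Per the labels, CD68-rich tissue was captured by laser and its RNA amplified and sequenced. The authors deposited 1 file of raw read counts per sample (39), with 24062 gene rows and 5 closing lines on unassigned reads, which were left out of totals. Per the submitters' processing notes, TopHat2 2.1.0, Bowtie2 2.2.8 and HTSeq 0.6.1 were used. The build named there is a human one, whereas the rows are mouse symbols; mouse build, annotation, strand setting and filters are not given in the sources used here. Per the files' closing lines, reads with several alignments were not counted in genes.

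Group fits used all libraries in edgeR 4.0.16 (R 4.3.3; filterByExpr, TMM factors, robust glmQLFit and glmQLFTest), with Benjamini-Hochberg adjustment over all genes and a threshold of 0.05. Rn45s stayed in the counts of these fits. Standard errors are the log2 value over the root of F. Slopes added the log2 Rn45s share to the group terms, with Rn45s removed from the counts, and a further fit let slopes differ by group. The group and slope fits were run on simulated counts with the same spread for every gene and no trend on GC content or length. Such counts do not show how the fits behave with the trends seen here. Correlations used log2 shares (0.5 added to each count) with two-sided permutation tests in scipy 1.17.1, exact for 9 libraries and with 100000 resamples for 10. Alternatives used DESeq2 1.42.0 and limma 3.58.1, other filters and scalings, covariates, and each library left out. No 2 libraries were identical (0 pairs).

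The genes and lists were chosen with earlier results of these data known. Named genes were the 5 RNAs, the 10 of smallest p in each direction of the slope fit (adjusted p under 0.05, mean log2 CPM of at least 5, regular symbol), the first 3 of each list, and the 5 most like Malat1 and Neat1.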

Additional observations from a re-analysis of the deposited data

Results flagged for a closer look

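A library was picked out where the gap between the highest or lowest value of a group and its neighbour exceeded Dixon's 95% limit as a share of the group's range. Of 20 groups of values tested, 4 met it. About 1 in 20 would do so for normally distributed values. These levels were not logged, and all 4 were high values of Neat1 or Meg3, so no excess is read from the count.

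Neat1 stood at 3207 CPM outside Rn45s in TRAF6i-HDL replicate 8, where the next library of the group had 1919. The same library was the highest of its group for Meg3, at 42.9 CPM, with 25.3 next. It also had the lowest Rn45s share of its group, 2.59%. Of its uniquely aligned reads outside Rn45s, 56.2% lay outside genes, the lowest such share. PBS replicate 3, with the highest Neat1 level of all, was close to it at 56.85%. TRAF6i-HDL replicate 8 is the library meant below. The Meg3 level of that library rests on 18 counts.

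Neat1 stood at 1080 CPM in mTORi-HDL replicate 1, where the next library had 806. Meg3 stood at 211.5 CPM in PBS replicate 9, where the next had 72.3; that library holds 50091 gene counts, 9 of them in Meg3.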

How the results depend on the processing

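The slope of Neat1 stayed negative and past the threshold under all 15 alternatives (-0.74 to -0.39) and all 39 fits without 1 library (-0.56 to -0.37). The slope of Malat1 stayed positive and passed under 6 of 15: the DESeq2 Wald test (0.184), limma-voom (0.243), no low-count filter (0.193), without the libraries under 200000 gene counts (0.185), the share not logged (0.298 per 10 points) and no group term (0.187). It ran from 0.162 to 0.268 with 1 library left out, passing without TRAF6i-HDL replicate 8 or PBS replicate 1. The slope of Meg3 turned positive under limma-voom (0.107) and with the share not logged (0.0316), and ran from -0.154 to 0.0649 with 1 library left out. The slope of Kcnq1ot1 turned positive under the same 2 settings (0.0190 and 0.0357), passed, lower, with GC and length offsets (-0.183, and -0.190 without the shallow libraries too), and ran from -0.0663 to 0.00802. The cause was not tested.

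Genes changing with the share numbered 4926 at an adjusted p under 0.2 and 2637 to 3147 with 1 library left out. Genes whose slope differed between groups numbered 122 with no low-count filter, 124 with GC and length offsets and 9 to 151 with 1 library left out (9 without TRAF6i-HDL replicate 8, 151 without PBS replicate 3, also moved without PBS replicate 8 or 10).

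The Neat1 call in mTORi-HDL against PBS was lost under 7 of 11 alternatives (-1.81 to -0.44 over the 11, adjusted p 0.0135 to 0.668). The 7 were limma-voom, no low-count filter, a replicate block, depth, leaving out the shallow libraries, removing Rn45s, and the Rn45s share. The difference nearest 0, -0.44, came with the Rn45s share as a covariate. The Meg3 call in mTORi-HDL against TRAF6i-HDL was lost under 4 of 11 (1.06 to 1.45). Other differences from PBS changed sign without passing: Malat1 in TRAF6i-HDL without the shallow libraries (0.0390) and with 1 library left out (-0.150 to 0.0668), Meg3 in S6K1i-HDL with depth as a covariate (0.09), and, with the Rn45s share as a covariate, Malat1 (-0.11), Neat1 (0.54) and Hnrnph1 (0.0140) in S6K1i-HDL.

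Genes differing between groups, with 2, 171 and 1242 for TRAF6i-HDL, mTORi-HDL and S6K1i-HDL against PBS, numbered as follows. The DESeq2 Wald test gave 25 and 344 for the first 2, and limma-voom 1, 368 and 1922. Depth as a covariate gave 1, 75 and 407, the Rn45s share 1, 21 and 38, and an adjusted p under 0.2 gave 71, 1169 and 2996. DESeq2 size factors, no low-count filter and leaving out the shallow libraries each gave 1 for TRAF6i-HDL, and GC and length offsets 531 for S6K1i-HDL. For S6K1i-HDL against TRAF6i-HDL the DESeq2 Wald test gave 348, limma-voom 688, depth 72, the share 30 and the looser threshold 931. For mTORi-HDL against TRAF6i-HDL limma-voom gave 606 and the looser threshold 1095, and for S6K1i-HDL against mTORi-HDL 1850 and 1874. With 1 library left out the counts ran from 1 to 25, 73 to 435 and 790 to 1496 against PBS, and from 56 to 259 for S6K1i-HDL against TRAF6i-HDL.

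Within groups, r turned with shares of all gene counts for Malat1 in PBS (-0.00144), Meg3 in mTORi-HDL (-0.224) and Kcnq1ot1 in mTORi-HDL (-0.382) and S6K1i-HDL (-0.344), and without the 2 farthest libraries for Neat1 in mTORi-HDL (-0.452) and Kcnq1ot1 in TRAF6i-HDL (0.593) and S6K1i-HDL (-0.443).

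The labels do not say that replicate numbers pair the libraries. Deviations of same-numbered libraries correlated at a mean r of 0.0238 over 57 pairs, beside 0.00318 over 513 other pairs. Of the 57 pairs, 19 exceeded 0.1, and 5 of 39 libraries matched their own number best. Whether libraries of the same number were handled together was not tested. A replicate block left 2266 genes changing with the share, Neat1 at -0.43, and 84 genes in S6K1i-HDL against TRAF6i-HDL; slopes then differed between groups for 0 genes in edgeR's test, with 903 at an unadjusted p under 0.05. Meg3 had 1 to 164 counts in a library.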
